A study of Mus musculus with 145 samples.

Results

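Oxidative phosphorylation genes encode the subunits of respiratory chain complexes I, III and IV and of the ATP synthase, complex V. Members were taken from the deposited count table by gene symbol: the Nduf, Uqcr, Cox5 to Cox8 subunit and Atp5 families of the nuclear genome and the mt-Nd, mt-Cytb, mt-Co and mt-Atp genes of mitochondrial DNA. Names marking pseudogenes were left out, and a mean level of at least 5 CPM (counts-per-million scale) was required. Of 55416 genes in the table, 114 symbols matched, 9 were named as pseudogenes and 8 fell under the minimum, which left 97 members, 84 nuclear and 13 mitochondrial. Just inside the minimum stood Ndufaf6 at a mean of 5.12 CPM, and just outside were Ndufaf8 at 2.95 and Cox6b2 at 2.85 CPM. All 97 members passed the filter on low counts used in the tests.

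The libraries came from dorsal skin of mice under the fluorescent lamps of a tanning canopy, which gave 96.4% UVA and 3.6% UVB. Animals received 0 (sham handling), 5, 10, 20 or 40 mJ/cm2 and were sampled at 0, 6, 24, 48, 72 or 96 h, which gives 30 groups and 145 libraries of 1 animal each. Groups held 5 animals, except 20 mJ/cm2 at 48 h and the 4 irradiated groups at 96 h, which held 4. Strain, sex and age are not in the labels, and every sample is whole dorsal skin with no cell type set apart.

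Complexes I, III, IV and V are each a mosaic. Mitochondrial DNA supplies the hydrophobic core subunits, while the nucleus supplies all other subunits and the factors that assemble them, and the nuclear proteins are made on cytosolic ribosomes and imported. Complex II is nuclear throughout and is not covered by the symbol rule. Several complex IV subunits exist as paired isoforms, with Cox6a2, Cox7a1 and Cox8b the forms of heart and skeletal muscle, and Cox6a1, Cox7a2 and Cox8a the forms found in most other tissues. Mouse dorsal skin carries a thin sheet of skeletal muscle, the panniculus carnosus, beneath the dermis and fat. The RNA was selected by poly(A) and read as single ends of 75 bases.

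Library totals ran from 0.180 M to 64.6 M counts (M, mega), with a median of 11.1 M, and 2 libraries lay under 1 M. In sham replicate 3 at 0 h the mitochondrial members took 34.4% of all counts and the nuclear members 0.459%. Cytosolic ribosomal protein genes took 9.03% and 9.06% of counts in replicates 2 and 4 of 20 mJ/cm2 at 48 h and 9.94% in replicate 4 of 5 mJ/cm2 at 96 h, against a median of 3.34% over all libraries. Counts or medians of members that rest on these 3 libraries are given with and without them. Single genes are given so only in part, and correlations over the 145 libraries include them.

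Several mitochondrial members could not be counted apart from copies of mitochondrial DNA that lie in the nuclear genome. A stretch of each of 3 genes is shown beside its copy (bases counted from the start of the transcript, GENCODE vM21 on GRCm38), because reads from such stretches fit both places equally. Bases 301 to 375 of mt-Co3 (cytochrome c oxidase subunit 3) and of its copy Gm28437 are the same:
mt-Co3: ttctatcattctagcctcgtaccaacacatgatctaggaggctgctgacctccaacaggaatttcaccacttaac
Gm28437: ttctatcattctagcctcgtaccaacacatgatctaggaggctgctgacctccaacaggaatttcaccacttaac
Bases 301 to 375 of mt-Co2 (subunit 2, which takes electrons from cytochrome c) and of Gm28661 are also the same:
mt-Co2: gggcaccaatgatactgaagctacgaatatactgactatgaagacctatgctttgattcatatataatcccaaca
Gm28661: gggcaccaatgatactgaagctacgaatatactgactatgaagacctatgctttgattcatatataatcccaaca
Bases 1 to 75 of mt-Nd3 (a small core subunit of complex I) and of Gm28438 differ at the base in capitals, T3C from gene to copy, which is their only mismatch over 345 aligned bases:
mt-Nd3: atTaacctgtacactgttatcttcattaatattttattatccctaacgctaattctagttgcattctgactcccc
Gm28438: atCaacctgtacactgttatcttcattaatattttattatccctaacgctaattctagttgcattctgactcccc

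Copies of at least 99% identity were found for 7 of the 13 mitochondrial members. For mt-Co3 the copy was counted at a mean of 7910 CPM and the gene at 279 CPM. The copy of mt-Co2 had 7723 CPM against 703 for the gene, and that of mt-Atp6 (Gm10925) 8225 against 606. In mt-Nd3 the values were 396 and 275 CPM, and in mt-Nd4l, with its copy Gm10222, 169 and 605 CPM. By contrast mt-Co1 kept 23274 CPM beside 3667 in Gm29216, which matches 483 of its 1545 bases, and mt-Nd4 kept 7350 CPM beside 2.86 in Gm28439. The gene was above its copy in 145 of 145 libraries for mt-Co1 and mt-Nd4, in 1 library for mt-Co2 and in 0 for mt-Co3 and mt-Atp6.

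Summing gene and copy narrowed the spread between libraries. The standard deviation of log2(CPM + 0.5) over 145 libraries fell from 3.73 to 0.726 for mt-Co3, from 2.29 to 0.701 for mt-Co2, from 1.70 to 0.911 for mt-Nd3, from 1.49 to 0.926 for mt-Atp6 and from 1.43 to 0.782 for mt-Nd4l. The 8 mitochondrial members without a copy that may share all their reads moved together over the 145 libraries, with pairwise r from 0.80 to 0.99 and a median of 0.96. For the 5 with such a copy, r among themselves ran from 0.02 to 0.58. These values describe points that share libraries and depth, and single values of mt-Co2, mt-Co3, mt-Atp6, mt-Nd3 and mt-Nd4l are read below only beside their sums.

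**Figure D1:**
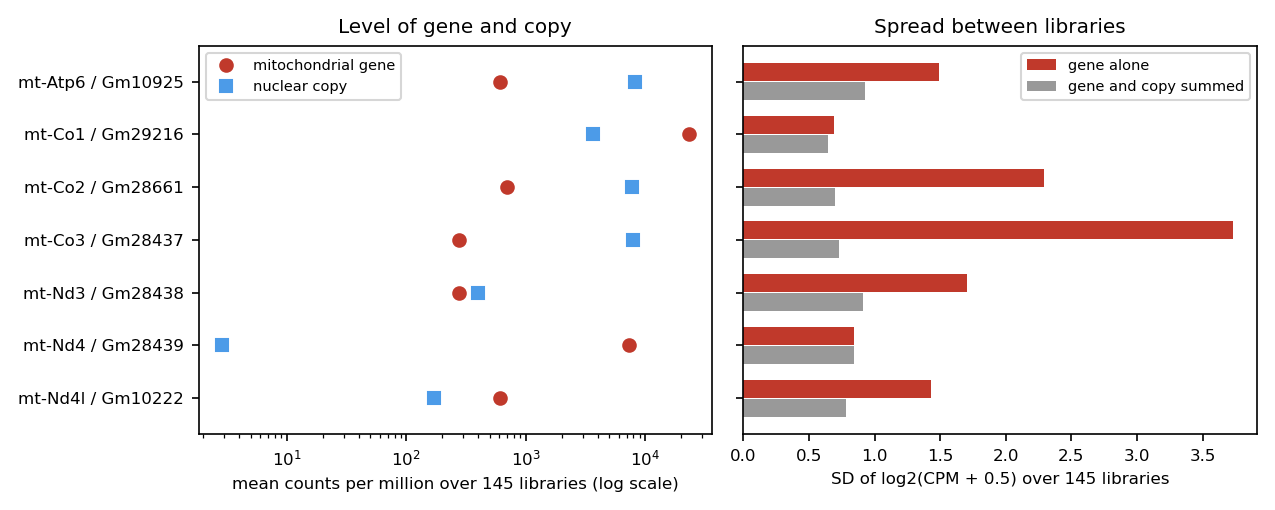
Left, mean CPM (log axis) of 7 mitochondrial genes (circles) and their nuclear copies (squares) over 145 libraries; right, standard deviation of log2(CPM + 0.5) of the gene alone and of gene and copy summed. For mt-Atp6, mt-Co2 and mt-Co3 the copy stands far above the gene, and the values on the right drop on summing in each pair with a copy that may share all reads.

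Per length, 12 of the 13 mitochondrial members lay above every nuclear member, and mt-Co3, whose copy was counted far above it, did not. Median RPKM (counts per kilobase of exon in CPM) over the 145 libraries was 12872 for mt-Co1, the catalytic subunit of complex IV, 6890 for mt-Cytb of complex III, 4342 for mt-Nd1 and 4317 for mt-Nd4 of complex I. Counted alone, the lowest were mt-Nd6 at 1368 RPKM and 4 genes with a copy that may share all their reads. These were mt-Atp6 at 520, mt-Nd3 at 502, mt-Co2 at 378 and mt-Co3 at 219 RPKM. Summed with the copy, median CPM went from 258 to 7304 for mt-Co2 and from 172 to 7242 for mt-Co3. It went from 354 to 6775 for mt-Atp6 and from 175 to 603 for mt-Nd3. The low ranks of these 4 genes therefore hold only for counts without the copy. Among nuclear members the ATP synthase subunits Atp5b (beta, the catalytic subunit) and Atp5a1 (alpha) led, at 284 and 277 RPKM. Cox6b1 of complex IV followed at 246, and Ndufaf2, an assembly factor of complex I, was lowest at 1.90 RPKM. By complex, the median nuclear level was 42.5 RPKM in complex I (37 members), 5.95 in its assembly factors (7), 89.1 in complex III (8), 93.0 in complex IV (15) and 68.6 in complex V (17). In skin the muscle isoforms were not far below the others per length: Cox6a2 had 82.3 and Cox6a1 93.0 RPKM, Cox7a1 73.6 and Cox7a2 109, and Cox8b 111 and Cox8a 124.

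Promoters of a muscle and a common subunit of complex IV are printed because their levels part company below. They are not partners, and this couple was chosen after the matches and levels were seen. Both are the 250 bases before the RefSeq gene start on GRCm38.p6, minus strand, read 5′ to 3′ along the gene. Capitals mark TGCGCA, called the NRF1 core here, and CCGGAAG (or its reverse, CTTCCGG), the ETS core bound by GABPA. Only exact matches to these letters are marked, so other or longer forms of either site stay unmarked. The first is chr5:115348959-115349208 and the second chr7:140900447-140900696:
Cox6a1: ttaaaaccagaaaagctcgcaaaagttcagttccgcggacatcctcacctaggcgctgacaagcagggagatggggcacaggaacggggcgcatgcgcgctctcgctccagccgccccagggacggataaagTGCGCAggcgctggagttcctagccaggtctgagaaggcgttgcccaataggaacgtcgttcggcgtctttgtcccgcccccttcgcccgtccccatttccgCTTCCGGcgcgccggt
Cox8b: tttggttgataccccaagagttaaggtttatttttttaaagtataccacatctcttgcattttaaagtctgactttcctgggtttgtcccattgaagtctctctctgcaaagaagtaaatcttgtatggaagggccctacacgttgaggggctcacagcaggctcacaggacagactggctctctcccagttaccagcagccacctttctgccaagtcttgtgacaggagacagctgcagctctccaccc
Cox6a1 held 1 match to each core and Cox8b held 0. The cores did not part common from muscle forms as a class: in windows of 300 bases the common Cox7a2 and the muscle Cox7a1 both held 0 of either core, and the common Cox8a held 0 of the NRF1 core and 2 of the ETS core. Promoters (250 bases before to 50 after the start, both strands) were found for 68 of the 84 nuclear members. TGCGCA occurred in 16 of them (23.5%, against 8.79% of 27025 genes) and CCGGAAG in 15 (22.1%, against 9.93%). AAGATGG, the YY1 core, was in 10 (14.7%, against 7.28%), AAGGTCA, the core of estrogen-related receptor sites, in 7 (10.3%, against 5.38%), and the E-box CANNTG in 50 (73.5%, against 75%). These letters describe windows and do not show that a factor binds there.

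The share of counts taken by the members varied between animals of the same group. Nuclear members took 0.459% to 2.43% of counts (median 0.989%), and mitochondrial members with their copies 2.27% to 40.2% (median 7.17%). At 48 h the nuclear shares of the 5 sham animals were 1.15, 0.871, 1.01, 1.07 and 1.15%, those of the 4 animals at 20 mJ/cm2 were 1.04, 2.12, 1.07 and 1.80%, and those of the 5 at 40 mJ/cm2 were 0.905, 0.730, 1.03, 0.915 and 0.972%. At 20 mJ/cm2 the 2 high shares belong to the libraries with high ribosomal protein counts, and the other 2 lie within the sham range. Over time, the mean nuclear share in sham skin was 0.844, 0.940, 1.00, 1.05, 1.05 and 0.950% from 0 to 96 h, and after 40 mJ/cm2 it was 0.977, 0.969, 0.947, 0.910, 1.03 and 1.06%. The animals of both groups overlapped at every time. The mitochondrial share with copies at 48 h was 6.56 ± 1.73% in sham (SD, n = 5), 4.16 ± 1.49% at 20 mJ/cm2 (n = 4) and 4.14 ± 1.02% at 40 mJ/cm2 (n = 5).

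**Figure D2:**
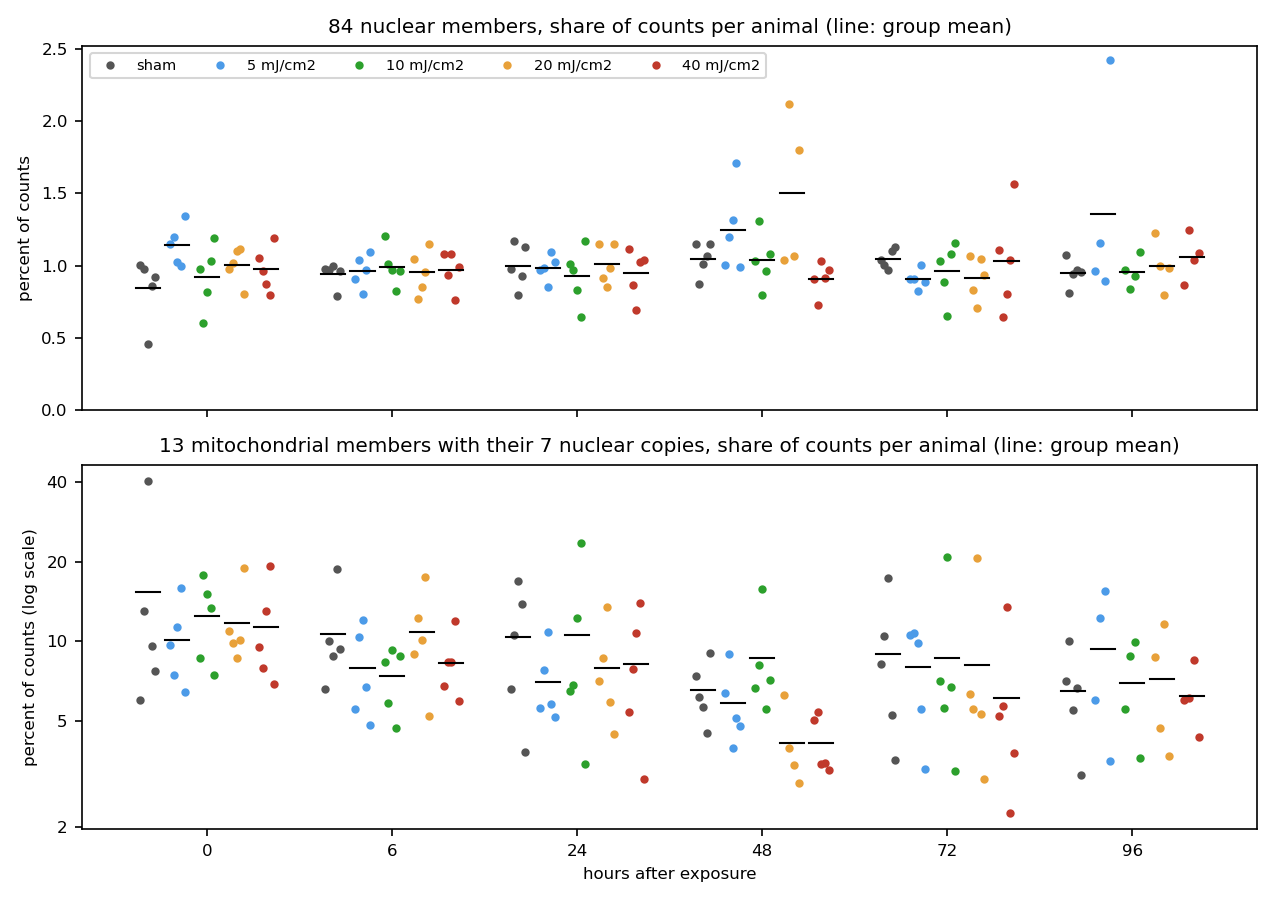
Percent of counts per animal for the 84 nuclear members (top) and, on a log axis, for the 13 mitochondrial members with their copies (bottom), by hours after exposure and dose; points are animals and lines group means. The 3 highest nuclear shares are those of the libraries with more than 8% ribosomal protein counts, and at 48 h the mitochondrial means at 20 and 40 mJ/cm2 lie lowest.

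Doses were compared with time-matched sham skin by edgeR's quasi-likelihood test over all genes, and calls were made at a Benjamini-Hochberg adjusted p below 0.05. Over the 24 comparisons, 0 of 84 nuclear members were called, and of the 13 mitochondrial members only mt-Nd5 was, lower at 40 mJ/cm2 at 48 h. At 40 mJ/cm2 the share of all genes called was 0% at 0 h, 4.9% at 6 h, 2.92% at 24 h, 7.73% at 48 h (3.97% higher and 3.76% lower), 1.26% at 72 h and 0.118% at 96 h. For 20 mJ/cm2 it was 0.434% at 6 h, 0.075% at 24 h and 0.482% at 48 h, and it was 0% in the other comparisons with sham. At an unadjusted p under 0.05 the nuclear count exceeded 15 in only 2 comparisons, with 44 higher at 20 mJ/cm2 at 48 h and 42 higher at 5 mJ/cm2 at 96 h, and both groups hold the libraries of high ribosomal protein share. Those counts stand beside 21.3% and 9.53% of all genes at the same threshold, and the next highest, 15 at 5 mJ/cm2 at 0 h, beside 3.4%. DESeq2 called members in 2 of the 24 comparisons with sham: 13 nuclear and 1 mitochondrial at 20 mJ/cm2 (7.21% of all genes) and 3 nuclear and 3 mitochondrial at 40 mJ/cm2 (10.2%), both at 48 h. All doses of a time share 1 fit. Without the libraries of high ribosomal protein share, 40 mJ/cm2 at 48 h had 6 nuclear members called lower (7 by DESeq2). Of the mitochondrial members 2 were called lower (3 by DESeq2). The share of all genes called in that setting is not given here, so these counts are not read as a result about the members.

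The 4 doses of a time share their sham animals, so their values stand side by side and are not independent. Median log2 fold changes of the nuclear members at 40 mJ/cm2 were 0.25, 0.10, -0.15, -0.36, -0.05 and 0.14 from 0 to 96 h. Those of the mitochondrial members were -0.89, -0.34, -0.40, -0.87, -0.68 and -0.06. The nuclear signs at 6 and 96 h and the mitochondrial sign at 96 h turned in the fit with GC and length slopes described below. At 0 h the mitochondrial medians of all 4 doses lay below 0, from -1.09 to -0.80, beside the sham library whose mitochondrial share was 34.4%. The nuclear medians of the 4 doses lay above 0, from 0.08 to 0.45, and the same sham library had the lowest nuclear share, 0.459%. Medians without that library are not given here. Whether the response to 40 mJ/cm2 differed between successive times was tested directly, and in these 5 tests 0 members were called by edgeR or DESeq2, with background shares of 0.927% of all genes from 0 to 6 h, 0.0107% from 6 to 24 h and 0% in the other 3. Only from 0 to 6 h did members pass an unadjusted p of 0.05, 1 nuclear and 1 mitochondrial, beside 10.6% of all genes.

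At 48 h after 40 mJ/cm2, 12 of 13 mitochondrial members had a log2 fold change below 0 against sham skin and 9 an unadjusted p under 0.05, all lower, but only mt-Nd5 passed the test. CPM values here and below carry TMM scaling over all libraries. The member levels, copies and RPKM above, and all shares of counts, do not. The core subunit mt-Nd5 of complex I had 2957, 2223, 1900, 1593 and 3532 CPM in the sham animals, whereas the animals given 40 mJ/cm2 had 1923, 1899, 965, 1100 and 851 CPM. The lowest sham animal lay below the 2 highest irradiated ones, so the groups overlapped. Its log2 fold change was -0.93 ± 0.28 (SE, edgeR adjusted p = 0.0424), and leaving out 1 library at a time gave adjusted p from 0.0299 to 0.189, with the call lost in 7 of 10 cases. Without sham replicate 5 the fold change was -0.67 (adjusted p = 0.189). Within the libraries whose titles end in R1_001 (2 a group) it was -0.45 (adjusted p = 0.852), and within those ending in R1 (3 a group) it was -1.27 (adjusted p = 0.0607).

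In the same comparison mt-Co1 fell just short. Sham animals had 20135, 15316, 14670, 13197 and 24665 CPM, the irradiated ones 11532, 10531, 8872, 9533 and 8307 CPM, so every irradiated animal lay below every sham animal. Its log2 fold change was -0.87 ± 0.27 (edgeR adjusted p = 0.0511). It was the only mitochondrial member without overlap, beside 6.11% of all genes lower without overlap. For mt-Cytb, the mitochondrial subunit of complex III, sham values lay between 5273 and 10329 CPM, irradiated ones between 3217 and 5944 CPM, with a log2 fold change of -0.82 ± 0.29 (adjusted p = 0.0932). The 7 mitochondrial complex I members lay between -1.68 and -0.84 in log2 fold change, all 7 at an unadjusted p under 0.05. Among these, mt-Nd3 and mt-Nd4l are counted alone. Summed with its copy, mt-Nd3 averaged 521 ± 222 CPM in sham skin and 228 ± 88.7 CPM after 40 mJ/cm2. For mt-Nd4l the sums were 652 ± 209 and 363 ± 120 CPM (SD, n = 5 each).

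The 2 mitochondrial subunits of the ATP synthase, mt-Atp6 and mt-Atp8, overlap on the mitochondrial genome and had log2 fold changes of -0.52 ± 0.55 and -0.66 ± 0.48 (edgeR adjusted p = 0.708 and 0.529). With gene and copy summed, an alternative added after the data were seen, mt-Co3 averaged 6757 ± 2475 CPM in sham skin, against 3314 ± 645 CPM after 40 mJ/cm2 (SD, n = 5 each, log2 fold change -1.05 ± 0.33, edgeR adjusted p = 0.0488). In that fit mt-Co1 (-0.88 ± 0.26, adjusted p = 0.0411) and mt-Nd5 (-0.93 ± 0.28, adjusted p = 0.0425) were called as well, 3 of 13 beside 7.74% of all genes. Counted alone, mt-Co3 had a log2 fold change of 0.14 ± 1.47, so its sign turned on summing. Summed with its copy, mt-Atp6 averaged 6243 ± 2249 CPM in sham skin and 3858 ± 1446 CPM after 40 mJ/cm2. For mt-Co2 the sums were 6274 ± 1996 and 3694 ± 848 CPM. Over the 13 sums and single genes, log2 fold changes then lay between -1.26 (mt-Nd3) and -0.66 (mt-Atp8).

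Nuclear members at 48 h after 40 mJ/cm2 were mostly below sham by small amounts: 79 of 84 had a log2 fold change below 0, with a median of -0.36. The median over all genes was near 0. At an unadjusted p under 0.05 stood 13 of 84, all lower, beside 19.9% of all genes in either direction. Without overlap between groups were 17 nuclear members, all lower, beside 6.11% of all genes lower without overlap. By complex, 36 of 37 members of complex I, 5 of 7 assembly factors, 8 of 8 of complex III, 13 of 15 of complex IV and 17 of 17 of complex V lay below 0.

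Core subunits showed the size of these shifts. Ndufs1, which carries iron-sulfur clusters in complex I, had 173, 167, 169, 161 and 216 CPM in sham skin, against 131, 147, 133, 136 and 122 CPM after 40 mJ/cm2, with no overlap (log2 fold change -0.41 ± 0.13, edgeR adjusted p = 0.057). The Rieske protein Uqcrfs1 of complex III spanned 125 to 178 CPM in sham skin, against 82.9 to 115 CPM after 40 mJ/cm2 (-0.58 ± 0.20, adjusted p = 0.0749). Neither passed the test, although neither pair of groups overlapped. Cox5a of complex IV had -0.59 ± 0.27 (adjusted p = 0.217), Atp5a1 had -0.31 ± 0.16 (adjusted p = 0.295) and Atp5b had -0.34 ± 0.19 (adjusted p = 0.345).

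Subunits outside the symbol rule lay in the same range. Sdhb, the iron-sulfur subunit of complex II, had 166, 93.3, 118, 130 and 145 CPM in sham skin at 48 h, against 99.3, 62.2, 106, 94.1 and 100.1 CPM after 40 mJ/cm2. The groups overlapped in the low sham animal, replicate 2, and the log2 fold change was -0.51 ± 0.32 (edgeR adjusted p = 0.422). Cyc1, cytochrome c1 of complex III, had -0.36 ± 0.31 (adjusted p = 0.618), Cox4i1 of complex IV -0.28 ± 0.36 (adjusted p = 0.779) and its isoform Cox4i2 0.29 ± 0.43 (adjusted p = 0.817). The inhibitor Atpif1 had 0.19 ± 0.24 (adjusted p = 0.777).

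Isoform pairs of complex IV parted in sign or size. Muscle Cox7a1 had 79.4, 31.5, 49.1, 53.4 and 73.3 CPM in sham skin at 48 h, against 27.8, 13.9, 30.2, 24.8 and 25.2 CPM after 40 mJ/cm2, a log2 fold change of -1.24 ± 0.43 (edgeR adjusted p = 0.083). All irradiated animals lay below all sham animals for Cox7a1. Its common partner Cox7a2 had -0.18 ± 0.30 (adjusted p = 0.841) and the related Cox7a2l, which joins respiratory complexes, -0.30 ± 0.26 (adjusted p = 0.635).

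For the other pairs, Cox6a2 had a log2 fold change of -1.08 ± 0.48 (edgeR adjusted p = 0.203) beside 0.31 ± 0.33 in Cox6a1 (adjusted p = 0.713). Cox8b had -1.01 ± 0.44 (adjusted p = 0.188) beside 0.26 ± 0.28 in Cox8a (adjusted p = 0.722). The pair Ndufa4 and Ndufa4l2 had -0.37 ± 0.28 and -0.77 ± 0.36 (adjusted p = 0.538 and 0.23). None of these differences within a pair was itself tested.

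Skeletal muscle markers moved with these genes. Of 30 muscle markers, 16 fell and 0 rose at 40 mJ/cm2 at 48 h (median log2 fold change -1.05), among them Casq1, the calcium store protein, at -1.34 ± 0.23 (edgeR adjusted p = 0.00083) and Pvalb, the calcium buffer of fast fibres, at -1.53 ± 0.36 (adjusted p = 0.00933). Summed, the markers took 5.36 to 7.78% of counts in sham skin, against 2.78 to 4.26% after 40 mJ/cm2, without overlap. In whole skin, fewer muscle fibres in a sample and less RNA per fibre cannot be told apart. Neutrophil markers rose in the same animals, 5 of 7 (S100a9 by 5.58 ± 0.94, adjusted p = 0.000599), and macrophage markers in 3 of 10. A covariate was fitted for the skeletal muscle markers only (below), and the part of neutrophils and macrophages in the members' values was not tested.

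Genes of the pathway outside the symbol rule followed the same order of size. Of the 8 genes of complex II, cytochrome c and Cox4, 1 was called: Sdha, the flavoprotein of complex II, fell by 0.50 ± 0.13 on the log2 scale (edgeR adjusted p = 0.0201), from 322 to 404 CPM in sham to 235 to 265 CPM at 40 mJ/cm2. In the tricarboxylic acid cycle 3 of 17 fell and 0 rose, namely Idh3a (-0.64 ± 0.16, adjusted p = 0.0153), Sucla2 (-0.66 ± 0.19, adjusted p = 0.0288) and Pdha1 (-0.46 ± 0.14, adjusted p = 0.0491). Among 8 measured carriers and uncoupling proteins 3 fell, including Slc25a4, the muscle and heart ADP/ATP carrier (-0.89 ± 0.25, adjusted p = 0.0265), and the outer membrane channel Vdac1 (-0.75 ± 0.17, adjusted p = 0.00681). In the mitochondrial ribosome 0 of 82 were called and in assembly factors outside the rule 0 of 42, with 1 and 4 at an unadjusted p under 0.05. These lists stand beside 7.73% of all genes called.

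Of 16 regulators of mitochondrial gene expression, Ppargc1a, the coactivator PGC-1 alpha, fell by 1.08 ± 0.30 (edgeR adjusted p = 0.0245) and Hif1a rose by 0.78 ± 0.24 (adjusted p = 0.0489). In glycolysis 2 of 22 rose and 3 fell: Pgam1 by 0.83 ± 0.17 (adjusted p = 0.00363) and the glucose transporter Slc2a1 by 0.96 ± 0.27 (adjusted p = 0.03) rose, while the muscle forms Pfkm (-1.18 ± 0.28, adjusted p = 0.00927) and Eno3 (-1.08 ± 0.33, adjusted p = 0.0453) and Pdk4, which restrains pyruvate dehydrogenase (-1.47 ± 0.39, adjusted p = 0.0191), were lower. Of 27 measured genes of mitochondrial DNA upkeep and expression only Mterf4 was called, higher by 0.84 ± 0.18 (adjusted p = 0.00567).

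At 20 mJ/cm2 at 48 h the nuclear members pointed the other way, with 81 of 84 above sham and a median log2 fold change of 0.71, yet 0 were called by edgeR and 13 by DESeq2. Cox8a came nearest: 79.9, 66.4, 60.6, 77.3 and 70.7 CPM in sham skin, against 94.5, 252, 97.8 and 222 CPM after 20 mJ/cm2 (log2 fold change 1.22 ± 0.30, edgeR adjusted p = 0.0607). For Cox6a1 the 4 irradiated animals had 83.9, 252, 90.6 and 224 CPM, again high in replicates 2 and 4 (1.40 ± 0.35, adjusted p = 0.0633). The ATP synthase inhibitor Atpif1, which the symbol rule leaves out, was called higher, with 84.6, 226, 94.7 and 235 CPM against 58.0 to 77.1 in sham (1.20 ± 0.26, adjusted p = 0.0344). Mitochondrial members had a median of -0.70, with 11 of 13 below 0.

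Without the 2 libraries of high ribosomal protein share, which leaves 2 animals at 20 mJ/cm2, the nuclear median was -0.04 with 30 of 84 members above 0, so the direction turned. edgeR and DESeq2 then called 0 nuclear and 0 mitochondrial members, 0 of them at an unadjusted p under 0.05 by either tool, beside 0.00536% of all genes called by edgeR. The mitochondrial median was -0.64, again with 11 of 13 below 0. In that fit Cox8a had a log2 fold change of 0.43 ± 0.29, Cox6a1 of 0.50 ± 0.35 and Atpif1 of 0.40 ± 0.22 (edgeR adjusted p = 1.0 for each), so the call of Atpif1 was lost.

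Set against 20 mJ/cm2 directly, 40 mJ/cm2 at 48 h gave 47 of 84 nuclear members lower, 0 higher and 0 of 13 mitochondrial members called, beside 4.25% of all genes called lower, 3.57% called higher and 7.81% either way. DESeq2 called 62 nuclear members and 1 mitochondrial member lower, beside 11.7% of all genes. The median log2 fold change was -1.09. Called lower were 21 of 37 members of complex I, 2 of 7 assembly factors, 3 of 8 of complex III, 12 of 15 of complex IV and 9 of 17 of complex V. The same 2 libraries decide these counts: 47 became 1 without replicate 2 and 10 without replicate 4 of 20 mJ/cm2, but 60 and 68 without replicates 1 and 3. Leaving both high ribosomal protein libraries out gave 0 called of 84 by edgeR, beside 1.17% of all genes, and 0 by DESeq2, with 1 at an unadjusted p under 0.05 by either tool and 80 of 84 still below 0 (median -0.29). By its title replicate 2 is a repeat with an RNA amount in ng of its own, which replicate 4 is not, and the part of this in the result was not tested. Of 79 cytosolic ribosomal protein genes, 48 were called lower in the same comparison, and of 82 genes of the mitochondrial ribosome 16. At the other times 0 members differed between 40 and 20 mJ/cm2 by edgeR or DESeq2, where edgeR called 0.00536% of all genes at 0 h and at 96 h, 0% at 6 h, 0.166% at 24 h and 0.434% at 72 h. At an unadjusted p under 0.05 stood 1 mitochondrial member at 6 h and 1 nuclear member at 24 h.

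Cox7a1 had the largest fall among the members called in this comparison, from 53.4, 200, 34.2 and 90.2 CPM at 20 mJ/cm2 to 13.9 to 30.2 CPM at 40 mJ/cm2 (log2 fold change -1.92 ± 0.45, edgeR adjusted p = 0.0149). Without replicate 2 of 20 mJ/cm2 the values were -1.28 and 0.115. Cox7a2l had 153, 511, 153 and 379 CPM at 20 mJ/cm2 and 84.2 to 133 CPM at 40 mJ/cm2 (-1.32 ± 0.28, adjusted p = 0.00773). Without that replicate Cox7a2l had -0.93 and 0.0559. For Cox7a2 replicates 2 and 4 stood at 381 and 259 CPM and the other 2 at 104 and 106 CPM, close to the sham animals at 88.2 to 117 CPM. Without TMM scaling the highest Cox7a2 value of any library was 359 CPM. Cox8b (-1.64 ± 0.47, adjusted p = 0.0344), Cox5a (-1.01 ± 0.28, adjusted p = 0.0334) and Uqcrfs1 (-0.75 ± 0.21, adjusted p = 0.0307) were lower as well, and Ndufs1 was not (-0.14 ± 0.14, adjusted p = 0.561).

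Some further members, which are not the largest falls in order, were chosen after their values were seen. Cox7c, a small subunit of complex IV, had 135, 542, 96.0 and 375 CPM at 20 mJ/cm2 and 89.6, 46.3, 106, 87.4 and 101 CPM at 40 mJ/cm2 (log2 fold change -1.70 ± 0.38, edgeR adjusted p = 0.0109). Again replicates 2 and 4 stood apart, and the other 2 animals lay within the sham range of 71.7 to 161 CPM. Atp5e, the epsilon subunit of the ATP synthase, had -1.51 ± 0.39 (adjusted p = 0.0227). Ndufaf5, an assembly factor of complex I, had -1.23 ± 0.26, with the lowest adjusted p of the nuclear members (0.00728).

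The 5 mJ/cm2 animals at 96 h showed the same dependence on 1 library. Their nuclear median log2 fold change against sham was 0.87, with 83 of 84 members above 0, 42 at an unadjusted p under 0.05 (beside 9.53% of all genes) and 0 called by edgeR or DESeq2. Cox8a had 85.1, 81.0, 43.6 and 285 CPM there, against 53.4 to 70.1 CPM in sham skin, and replicate 4 is the library with 9.94% ribosomal protein counts. Without that library the nuclear median was 0.10.

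**Figure D3:**
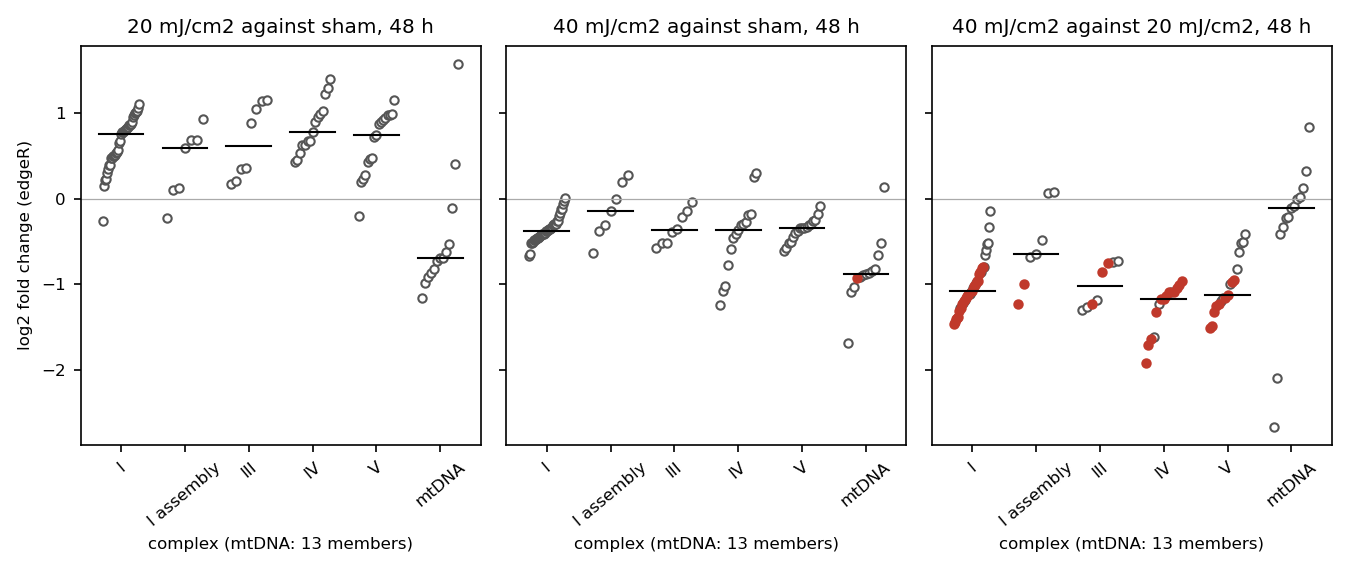
Log2 fold changes at 48 h of the nuclear members by complex and of the 13 mitochondrial members (mtDNA), for 20 mJ/cm2 against sham, 40 mJ/cm2 against sham and 40 against 20 mJ/cm2; filled points were called by edgeR, lines are medians. Nuclear medians lie above 0 in the left panel and below 0 in the other two, and 47 nuclear members are filled on the right.

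Across all 145 libraries the nuclear level, the mean log2 CPM of the 84 members, followed the level of cytosolic ribosomal protein genes (Pearson r = 0.89, Spearman rho = 0.81), with r = 0.86 and 0.90 within the libraries of each title ending. Against the mitochondrial share with copies it ran the other way (r = -0.55, rho = -0.48). The mitochondrial share in turn ran against ribosomal protein genes (r = -0.76). These are descriptions over libraries that share dose groups, and shares of a fixed total constrain each other.

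The isoforms differed in how closely they followed the muscle markers. The mean level of Cox6a2, Cox7a1 and Cox8b followed the 30 muscle markers with r = 0.87, and that of Cox6a1, Cox7a2 and Cox8a with r = 0.49. The ratio of the first set to the second followed them with r = 0.92 (rho = 0.93). Both sets also followed the ribosomal protein genes, with r = 0.84 for the first and 0.95 for the second. Of the 84 nuclear members, 65 had r above 0 with the muscle markers, among them Cox7a1 at 0.86, Cox8b at 0.84 and Cox6a2 at 0.82, while 0 of the 13 mitochondrial members did. With epidermal keratinocyte markers the nuclear level had r = 0.03.

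**Figure D4:**
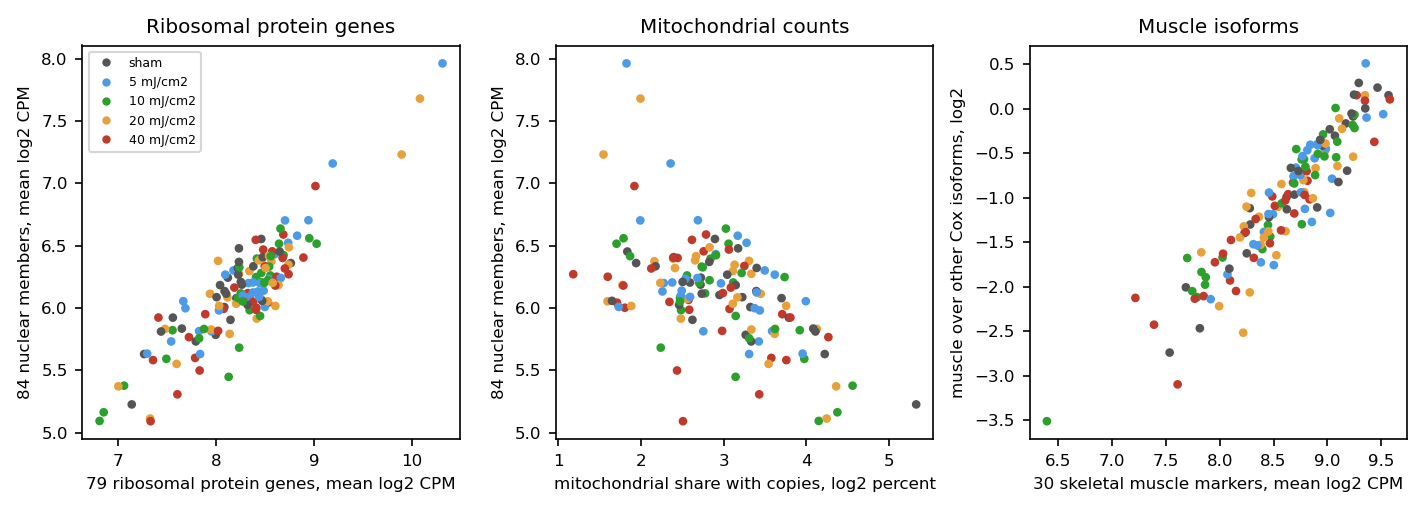
Points are 145 libraries coloured by dose: nuclear member level against ribosomal protein gene level (left) and against the mitochondrial share with copies (middle), and the log2 ratio of muscle to other Cox isoforms against skeletal muscle markers (right), all on log2 scales. The left and right panels rise (r = 0.89 and 0.92) and the middle falls (r = -0.55).

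The nuclear members did not move as a block with the mitochondrial ones. The mitochondrial level used here averages all 13 members counted alone, including the 5 whose copy may share all their reads. In replicate 5 of 10 mJ/cm2 at 6 h, a library under 1 M counts, it was 7.81, against 11.80 over the 8 others. The relations with GC content and slopes below use the same level, and values with the 8 alone are not given here. Over 145 libraries 33 of 84 nuclear members had r above 0 with this level of the mitochondrial members. The 5 most alike were Ndufs1 (r = 0.83), Ndufaf4, an assembly factor (0.80), Uqcrb of complex III (0.79), Ndufab1, the acyl carrier protein (0.78), and Atp5f1, a stalk subunit of the ATP synthase (0.72). At the other end stood Uqcr11 at -0.79 and Atp5d at -0.76, which were chosen after their values were seen.

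This order followed base composition. Across the 84 nuclear members, r with the mitochondrial level fell with the GC content of the transcript (r = -0.68, rho = -0.70, across genes, which are not independent). Over the 18518 other genes tested the same relation was r = -0.81. Members with r above 0 had a median GC content of 47.8% and those below 0 of 53.8%. The members were also short, with a median transcript of 0.892 kb against 2.77 kb in other genes, and their log2 fold changes for 40 against 20 mJ/cm2 at 48 h rose with log2 length (r = 0.57, against 0.27 in other genes).

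The slope of expression on GC content and on length was therefore computed in each library from genes that are not members. The GC slope ran from -1.43 to 0.83 log2 units per 10% GC over the libraries and had r = -0.84 with the mitochondrial level and 0.71 with the nuclear level. The length slope had r = -0.82 with the nuclear level. At 48 h it was -0.33 and -0.31 log2 units per doubling of length in replicates 2 and 4 of 20 mJ/cm2, the lowest of that time, and between -0.05 and 0.08 in the 10 sham and 40 mJ/cm2 animals. What sets these slopes, and whether RNA quality does, was not tested.

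With both slopes as covariates, an alternative added after the data were seen, 66 of 84 nuclear members and 9 of 13 mitochondrial members were called lower at 40 mJ/cm2 at 48 h by edgeR and 0 higher, beside 11.9% of all genes called lower and 23% called either way. The nuclear median was -0.45 and the mitochondrial median -0.84, against -0.36 and -0.87 without the slopes, and the standard error of Uqcrfs1 went from 0.20 to 0.10. Leaving out each of the 10 libraries in turn gave between 54 and 66 nuclear and between 7 and 10 mitochondrial members called lower. By complex the nuclear calls were 30 of 37, 3 of 7 assembly factors, 5 of 8, 13 of 15 and 15 of 17 for I, III, IV and V, and the mitochondrial ones were 7 of 7 in complex I, mt-Cytb, and mt-Co1 of complex IV. The 7 include mt-Nd3 and mt-Nd4l counted alone, and no fit with slopes was run on sums with copies.

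In that fit Cox7a1 fell by 1.39 ± 0.23 (edgeR adjusted p = 0.000264), Cox6a2 by 1.21 ± 0.24 (adjusted p = 0.00101) and Cox8b by 1.12 ± 0.21 (adjusted p = 0.000732) on the log2 scale. Common subunits fell less: Uqcrfs1 by 0.64 ± 0.10 (adjusted p = 0.000178), Ndufs1 by 0.40 ± 0.10 (adjusted p = 0.006), Atp5a1 by 0.36 ± 0.09 (adjusted p = 0.00521) and Atp5b by 0.41 ± 0.10 (adjusted p = 0.00546). Cox6a1 (0.16 ± 0.10, adjusted p = 0.29) and Cox8a (0.13 ± 0.11, adjusted p = 0.435) were not called. The other 13 of 15 nuclear members of complex IV were called lower, the common form Cox7a2 among them. Beside them Sdhb of complex II fell by 0.63 ± 0.11 (adjusted p = 0.000323), 15 of 17 genes of the tricarboxylic acid cycle fell, 22 of 30 muscle markers fell and 1 rose, and of 79 cytosolic ribosomal proteins 2 rose and 0 fell.

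The level of muscle markers and these calls could not be separated. With the muscle marker level added to the slopes, 0 nuclear and 0 mitochondrial members were called at 40 mJ/cm2 at 48 h, with medians of -0.14 and -0.13, beside 5.41% of all genes called. With muscle markers alone as a covariate the nuclear median was 0.09, with 5 called higher and 1 lower, and the mitochondrial median was -1.23, with 7 called lower, beside 14.6% of all genes. In that design the marker level and the dose move together, and their parts in the result cannot be told apart.

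At other times the slopes gave fewer calls at 40 mJ/cm2 against sham: 11 nuclear members lower and 1 higher at 6 h (beside 4.25% of all genes called), 14 nuclear and 1 mitochondrial lower at 24 h (18.5%), 15 nuclear and 5 mitochondrial lower at 72 h (8.56%), and 0 at 0 and 96 h. Nuclear medians turned from 0.10 to -0.46 at 6 h, with 81 of 84 below 0, and from 0.14 to -0.15 at 96 h, with 82 below 0. They moved from 0.25 to 0.16 at 0 h, from -0.15 to -0.25 at 24 h and from -0.05 to -0.34 at 72 h. The mitochondrial median turned from -0.06 to 0.15 at 96 h. For 20 mJ/cm2 at 48 h the nuclear median turned from 0.71 to -0.20 with 0 called (beside 0.0482% of all genes), and for 40 against 20 mJ/cm2 at 48 h the count fell from 47 to 5 (beside 5.87%) and the median from -1.09 to -0.26.

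**Figure D5:**
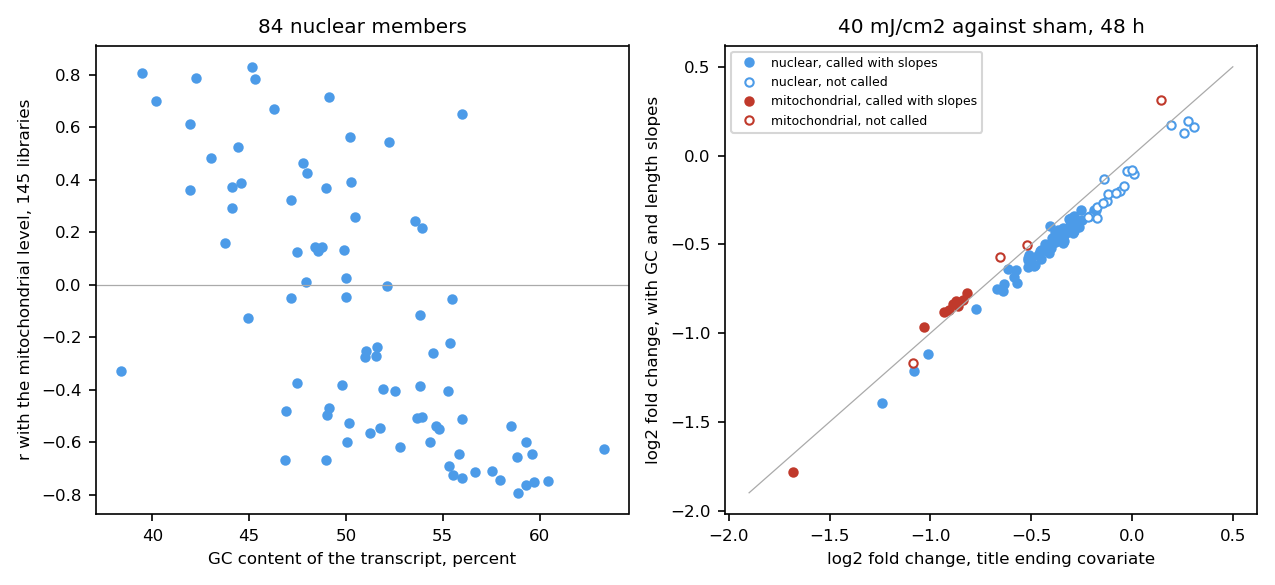
Left, correlation over 145 libraries of each nuclear member with the mitochondrial level against the GC content of its transcript; right, log2 fold change at 40 mJ/cm2 against sham at 48 h with GC and length slopes against that without, where filled points were called with slopes and the line marks equal values. The left cloud falls with GC content (r = -0.68), and on the right 66 nuclear and 9 mitochondrial points are filled.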

How the data were processed

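Dorsal skin mRNA (300 ng input, TruSeq stranded kit, Illumina NextSeq) was read to a depth of about 40 M single ends per the labels. Tools named in the submitters' processing notes are STAR 2.7.10a, fastp 0.23.0, bcl2fastq 2.20.422 and DESeq2 1.36.1, with build GRCm39; counting program, annotation and strand setting: not given in the sources used here. The authors deposited estimated counts (expected counts) per Ensembl gene, of which 12.6% were not whole and were rounded here. Symbols, lengths and GC content came from GENCODE vM21 on GRCm38, promoters from RefSeq, and copies from blastn 2.17.0. edgeR 4.0.16 (R 4.3.3) tested the dose groups of each time in 1 fit with TMM scaling, filterByExpr (18677 genes) and the title ending as covariate (71 libraries R1_001, 74 R1, a mark that the labels do not explain). RPKM used merged exon length and, like member means, copy means and shares, no TMM scaling. CPM per animal and group carry that scaling. Of the titles, 5 are marked as repeats (1 library each of 20 mJ/cm2 at 0, 24 and 48 h, 5 mJ/cm2 at 48 h and 40 mJ/cm2 at 96 h), and 2 of these, both at 48 h, name an ng amount other than 300. Labels count each library as a separate sample, and p-values measure the spread between these samples. Depth limits precision most in the 2 libraries under 1 M counts. Named genes were the mitochondrial members, isoform pairs, core subunits, Atpif1, the 3 called members changed most in a comparison with sham, Cox4, complex II and Cyc1, up to 4 called genes per list and the 5 most like the mitochondrial level; Cox7c, Atp5e, Ndufaf5, Ndufaf2, Uqcr11 and Atp5d were chosen after their values were seen. Members and lists were chosen with earlier results of these data known. Only the edgeR fit of 40 mJ/cm2 against sham at 48 h was tested on simulated counts, which held no GC or length slopes and no muscle shift. The other fits were not tested in this way. DESeq2 1.42.0, other filters, covariates and left-out libraries were alternatives.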

Additional observations from a re-analysis of the deposited data

Results flagged for a closer look

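Shares of counts were examined for a library far from the others of its group (Dixon's test at the 95% level) in 30 groups and 3 shares, and 14 values stood out. Chance alone gives about 1 in 20 groups for each share. The mitochondrial share is a part of the share with copies, so the 14 values are not independent. Sham replicate 3 at 0 h stood out in all 3 shares, with 0.459% of counts in nuclear members, 34.4% in mitochondrial members and 40.2% in mitochondrial members with copies. Sham replicate 4 at 6 h also stood out in all 3, at 0.790%, 13.3% and 18.7%. In the other 4 libraries only the mitochondrial shares did, and each was the highest of its group. Replicate 5 of 20 mJ/cm2 at 0 h had 12.45% in mitochondrial members and 19.0% with copies, and its title marks it as a repeat. Replicate 3 of 10 mJ/cm2 had 11.1% and 15.7% at 48 h and 14.25% and 20.8% at 72 h. Replicate 3 of 20 mJ/cm2 at 72 h had 13.8% and 20.6%. All 6 lie on the high side for mitochondrial counts, and both low nuclear shares are in libraries with high mitochondrial shares.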

How the results depend on the processing

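The share of all genes called moved with the setting too. For 40 mJ/cm2 at 48 h it was 7.73% as reported, 10.2% with DESeq2 and 14.6% with the muscle covariate. With slopes it was 23%, and with slopes and muscle 5.41%. Counts given without such a share describe the settings and are not read as results about the members. Counts of called members against sham or between doses differed from those reported under these settings. Nuclear members: 40 mJ/cm2 at 48 h gave 3 with DESeq2, 3 with no filter on low counts, 6 with the muscle covariate, 6 without the libraries of high ribosomal protein share (7 by DESeq2), 66 with GC and length slopes, 69 with slopes and without those libraries, and 1 with all libraries in 1 fit. For 20 mJ/cm2 at 48 h the counts were 13 (DESeq2, beside 7.21% of all genes), 30 (no filter), 3 (no title covariate), 45 (muscle covariate) and 7 (1 fit). For 40 against 20 mJ/cm2 at 48 h they were 2 (muscle covariate), 0 (R1_001 alone), 3 (R1 alone), 0 (without high ribosomal protein libraries, by edgeR and by DESeq2), 5 (slopes), 2 (slopes and muscle) and 13 (slopes without those libraries). The muscle covariate also gave 1 at 40 mJ/cm2 at 6 h, 3 at 20 and 22 at 40 mJ/cm2 at 24 h, and 1 for the change from 0 to 6 h. Slopes gave 1 at 20 mJ/cm2 at 0 h and at 6 h, 12 at 40 mJ/cm2 at 6 h, 14 at 24 h, 15 at 72 h, and 1 for 40 against 20 mJ/cm2 at 72 h; 1 fit gave 14 at 5 mJ/cm2 at 96 h.

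Mitochondrial members: 40 mJ/cm2 at 48 h gave 3 (DESeq2), 8 (no filter), 0 (no title covariate), 7 (muscle covariate), 0 within either title ending, 2 without high ribosomal protein libraries (3 by DESeq2), 3 with copies summed, 9 with slopes, 0 with slopes and muscle, 9 with slopes and without those libraries, and 0 in 1 fit. For 20 mJ/cm2 at 48 h the counts were 1 (DESeq2), 1 (no filter) and 3 (muscle covariate), and for 40 against 20 mJ/cm2 at 48 h 1 (DESeq2) and 2 (no filter). With no filter 3, 2, 3 and 2 were called at 5, 10, 20 and 40 mJ/cm2 at 0 h and 1 at 10 mJ/cm2 at 48 h; 1 fit gave 1 at 20 and at 40 mJ/cm2 at 0 h. At 24 h 40 mJ/cm2 gave 8 (muscle covariate) and 1 (slopes), and 40 against 20 mJ/cm2 gave 2 (slopes); slopes gave 5 at 72 h.

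Leaving out 1 library at a time gave 0 to 1 nuclear and 0 to 2 mitochondrial members called at 40 mJ/cm2 at 48 h, 0 to 22 and 0 to 2 at 20 mJ/cm2 at 48 h, 0 to 3 nuclear at 40 mJ/cm2 at 24 h, and 1 to 68 nuclear and 0 to 1 mitochondrial for 40 against 20 mJ/cm2 at 48 h. The cause of these differences was not tested. Directions of calls were not the same in all settings. Of the nuclear members called at 40 mJ/cm2 at 48 h, most were higher with the muscle covariate and all were lower with the slopes. Leaving out libraries under 1 M counts, or the mitochondrial genes from the table, changed 0 of the 20 and 30 counts computed. No paired analysis was possible because replicate numbers were given in accession order and pair no animals. Values of mt-Co2, mt-Co3, mt-Atp6, mt-Nd3 and mt-Nd4l are limited by sequence shared with copies, and depth is lowest in the 2 libraries under 1 M counts.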
